A study of Mus musculus with 111 samples.

Results

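T cells in the lungs of bleomycin-treated mice were followed through 10 genes that mark T cells or their regulatory subset, namely Cd3d, Cd3e, Cd3g, Lck, Cd4, Cd8a, Cd8b1, Foxp3, Ctla4 and Icos. A gene was included where the array holds a probeset annotated to that gene and to no other, which gave 15 probesets for 9 of the 10 genes, among 15707 genes in all. Lck has no such probeset in the annotation used and is not analysed here.

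Male C57BL6/J mice, aged 7 to 9 weeks, received either bleomycin at 2 U/kg in 50 microlitres or saline by the intratracheal route on a single occasion, and no other agent or allele distinguished the groups. Bleomycin is an antibiotic that breaks DNA, and its delivery to the airways is a widely used way to injure the lung and bring about fibrosis. Whole lungs were homogenised on days 1, 2, 7, 14, 21, 28 or 35, and the RNA of each mouse was hybridised to 1 Affymetrix whole-genome mouse array. There were 8 mice per treatment and day, except 7 saline mice on day 14, for 56 bleomycin and 55 saline arrays. As whole tissue was measured, fewer cells of a type and less RNA per cell cannot be told apart.

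The CD3 delta, epsilon and gamma chains form part of the T cell receptor complex and carry its signal into the cell. CD4 and CD8 are coreceptors that divide mature T cells into helper and cytotoxic lineages, and CD8 is a pair of an alpha and a beta chain encoded by Cd8a and Cd8b1. Regulatory T cells are CD4+ cells that restrain immune responses and depend on the transcription factor FOXP3. CTLA4 and ICOS are relatives of the costimulatory receptor CD28. CTLA4 is an inhibitory receptor held at high levels by regulatory T cells and induced on activated T cells, while ICOS is a costimulatory receptor of activated, follicular helper and regulatory T cells.

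The values are log2 levels after robust multi-array averaging (RMA), a method that corrects the background, aligns the arrays and summarises the probes of a probeset. A difference of 1 is a 2-fold change, each difference is bleomycin minus saline of the same day, and its error is the standard error of a linear model (limma) over all 111 arrays. A gene was called where its Benjamini-Hochberg adjusted p over all 15707 genes was below 0.05, and folds above 2 were counted beside the calls. The lung epithelial genes Sftpc, Sftpb, Scgb1a1 and Ager lay in the top 10 percent of the probesets of their own array in 111 of 111 arrays. Array medians lay between 8.61 and 8.73, and no pair of arrays held identical values.

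Among the saline mice, 3 stood apart, and they bear on the T cell genes. Saline mouse 7 of day 2 had a Glycam1 level of 12.54, where the other 7 mice of its group lay between 5.53 and 5.81, and saline mouse 3 of day 7 had 10.97 against 5.42 to 5.90. Glycam1 encodes a mucin-like ligand of high endothelial venules in lymph nodes. Cxcl13, a chemokine of B cell follicles, was 12.28 and 11.38 in these mice and 12.06 in saline mouse 4 of day 21, whereas the other saline mice of these days lay between 9.22 and 10.37. Glycam1 of the day 21 mouse was 6.02, within the 5.38 to 6.07 of the rest of its group. The mean of the 3 CD3 chains was 10.79 in the day 2 mouse against at most 9.96 in the rest of its group, 9.99 in the day 7 mouse against at most 10.04, and 10.23 in the day 21 mouse against at most 9.69. The part of lymphoid tissue in the values of these 3 mice was not tested, and results of days 2, 7 and 21 were also computed without them.

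**Figure D1:**
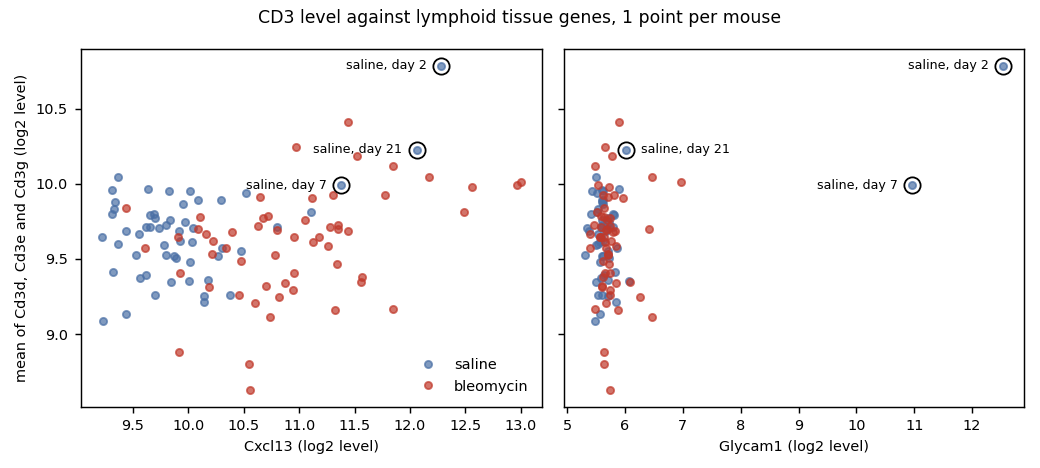
Mean log2 level of Cd3d, Cd3e and Cd3g against the log2 level of Cxcl13 (left) and Glycam1 (right), 1 point per mouse, with the 3 saline mice that stood apart circled. The day 2 and day 7 saline mice lie at Glycam1 levels of 12.54 and 10.97, while the 108 arrays other than the circled 3 lie between 5.30 and 6.97.

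In bleomycin mice, the regulatory and CD28 family genes were higher on days 7 and 14, the CD3 chains did not pass the test on any day, and the CD8 chains were lower at late times. On day 7, 3 of the 9 genes were called higher (Foxp3, Ctla4 and Icos), where 25.7% of all genes were called higher. On day 14, Cd4 was called as well, so that 4 of 9 were higher against 21.9% of all genes. On day 21, 1 of 9 was called lower (Cd8b1), where 18.9% of all genes were called lower. On day 28, 2 of 9 were called higher (Foxp3 and Ctla4), where 11.5% of all genes were. On day 35, 1 of 9 was called higher (Foxp3; background 16.9%) and 2 of 9 lower (Cd8a and Cd8b1; background 12.5%). On days 1 and 2, 0 of 9 were called by limma and 0 had an unadjusted p below 0.05, although 31.4% and 27.3% of all genes were called in either direction. Among the calls, Ctla4 on days 7 and 14 was the only gene with a fold above 2, where 2.85% and 2.41% of all genes were called higher with such a fold. The median difference of the 9 genes was 0.07 on day 7, 0.29 on day 14 and -0.14 on day 35, beside medians over all genes of -0.01, -0.01 and 0.02.

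**Figure D2:**
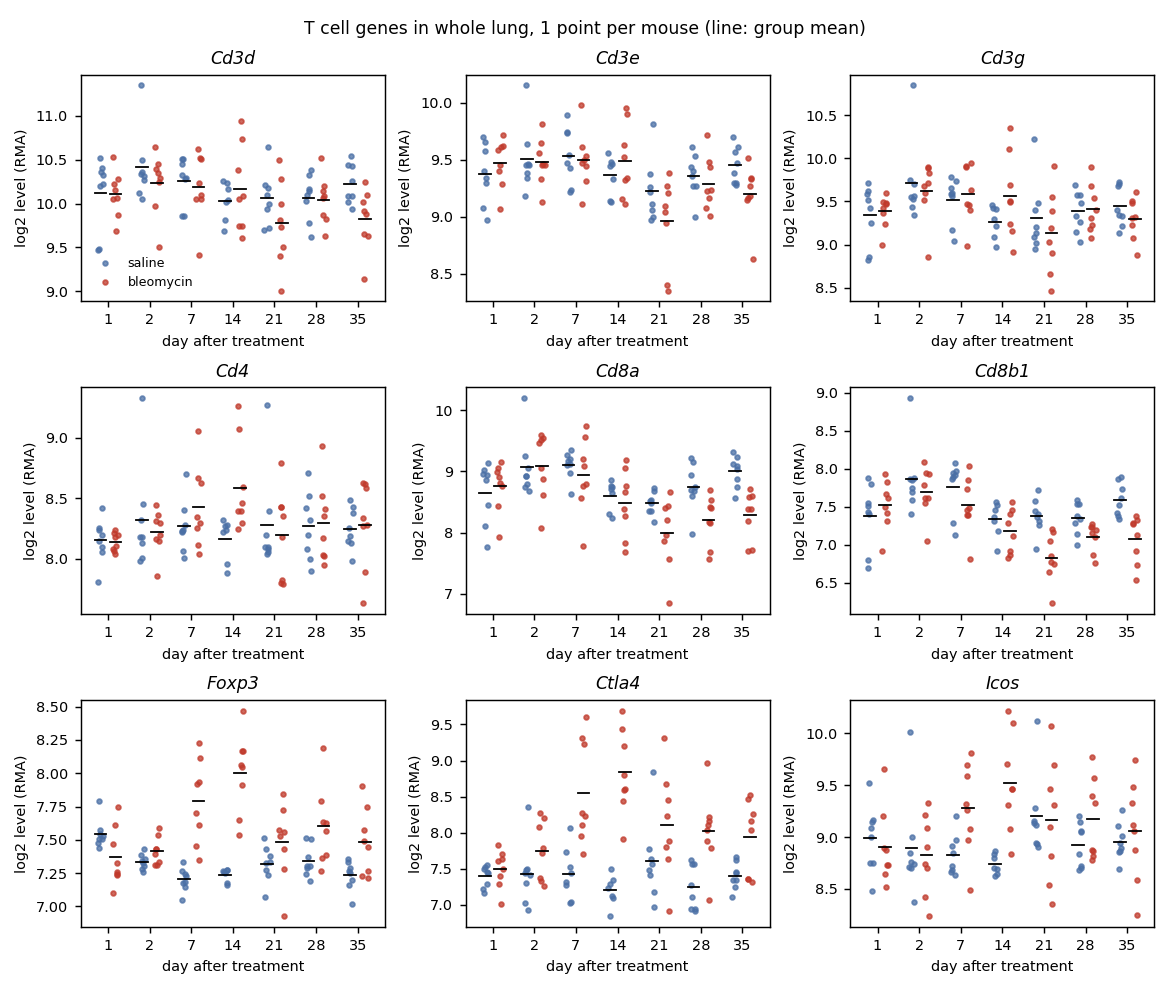
Log2 RMA level (y axis) of the 9 T cell genes by day (x axis) in saline (blue) and bleomycin (red) mice, with 1 point per mouse and a black line at each group mean (8 mice per group, 7 for saline on day 14). Foxp3 of days 7 and 14 shows no overlap between treatments, while the CD3 chains overlap on every day.

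The 3 CD3 chains, which every mature T cell of the alpha beta lineage carries, did not pass the test on any day. On day 14, Cd3d ranged from 9.60 to 10.94 in bleomycin mice (median 10.07) and from 9.69 to 10.26 in saline mice (median 10.04). The difference was 0.13 ± 0.18, with a 95% interval from -0.22 to 0.48. Bleomycin mice thus spread on both sides of the saline mice, with 3 above the highest and 1 below the lowest. For Cd3g on the same day the difference was 0.29 ± 0.17 (adjusted p = 0.167), and for Cd3e it was 0.13 ± 0.13 (adjusted p = 0.453). For Cd3g this was the largest difference in size of the 7 days, and it was -0.17 ± 0.17 on day 21 and -0.14 ± 0.17 on day 35. Cd3d and Cd3e had their largest differences on days 21 and 35. On day 35 Cd3d lay between 9.13 and 10.25 in bleomycin mice (median 9.89) and between 9.94 and 10.54 in saline mice (median 10.17). The day 35 difference was -0.40 ± 0.17 (adjusted p = 0.0649, interval -0.74 to -0.06), with 5 of 8 bleomycin mice below the lowest saline mouse. Of 12 alternative settings of the limma fit, 2 called this difference and 10 did not. It was called when each day was fitted alone (adjusted p = 0.0365) and with all saline arrays as control (adjusted p = 0.0281). Cd3e differed by -0.26 ± 0.13 on day 21 (adjusted p = 0.0865) and by -0.25 ± 0.13 on day 35 (adjusted p = 0.125). Without the saline mouse that stood apart on day 21, the Cd3e difference of that day was -0.18. The intervals of the CD3 chains reach from -0.74 to 0.64 over the 7 days.

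The sequences just upstream of the start sites are shown for genes that moved together and for genes that did not. The table of promoter sequences used (RefSeq, build GRCm38.p6) held 7 of the 10 genes. Each sequence below gives the 250 bases before an annotated start site, 5′ to 3′ on the strand of the gene, with motif matches on either strand in capitals. Of the 4 motifs searched, GGAAA is the core bound by NFAT factors, which act in activated T cells. The letters TGTGGT are a core of RUNX factors, which act in T cell development. The letters GTAAACA are bound by forkhead factors, the family of FOXP3. The TATA box, searched as TATAAA, positions the start of transcription. Foxp3 and Ctla4 rose on days 7 and 14, Cd3d and Cd3g are divergently transcribed neighbours whose levels moved together from mouse to mouse, and Cd8a was lower on day 35.
Foxp3, chrX:7579426-7579675, plus strand: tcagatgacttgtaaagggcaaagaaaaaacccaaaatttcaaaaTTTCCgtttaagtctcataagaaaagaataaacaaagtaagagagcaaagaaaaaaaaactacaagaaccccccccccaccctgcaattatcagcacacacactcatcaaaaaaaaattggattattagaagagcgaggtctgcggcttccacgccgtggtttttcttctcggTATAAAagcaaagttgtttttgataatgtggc
Ctla4, chr1:60908775-60909024, plus strand: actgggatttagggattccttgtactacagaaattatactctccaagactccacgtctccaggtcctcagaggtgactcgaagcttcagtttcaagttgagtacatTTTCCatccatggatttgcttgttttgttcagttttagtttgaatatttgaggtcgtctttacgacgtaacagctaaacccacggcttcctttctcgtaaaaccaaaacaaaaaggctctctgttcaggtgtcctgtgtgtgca
Cd3d, chr9:44981536-44981785, plus strand: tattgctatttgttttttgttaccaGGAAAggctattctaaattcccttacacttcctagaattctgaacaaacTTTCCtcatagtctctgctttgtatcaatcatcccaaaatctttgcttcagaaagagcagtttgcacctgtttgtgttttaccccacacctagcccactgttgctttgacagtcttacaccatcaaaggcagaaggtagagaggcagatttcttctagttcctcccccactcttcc
Cd3g, chr9:44980432-44980681, minus strand: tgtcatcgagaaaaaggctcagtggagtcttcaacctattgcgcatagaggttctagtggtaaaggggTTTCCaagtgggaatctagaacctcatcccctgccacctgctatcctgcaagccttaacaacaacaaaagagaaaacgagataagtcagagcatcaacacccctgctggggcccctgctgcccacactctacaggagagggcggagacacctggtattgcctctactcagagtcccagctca
Cd8a, chr6:71373177-71373426, plus strand: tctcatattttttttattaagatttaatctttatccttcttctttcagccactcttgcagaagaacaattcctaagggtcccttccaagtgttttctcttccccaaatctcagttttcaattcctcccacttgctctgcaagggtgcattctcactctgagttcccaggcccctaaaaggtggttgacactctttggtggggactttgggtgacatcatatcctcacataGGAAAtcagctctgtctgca
Each of the 5 windows holds a match to the NFAT core, on the other strand where the capitals read as its reverse complement, as do 55.6% of 32851 promoter windows of this length, so the match does not set these genes apart. The Foxp3 window shown, the first of 2 in the table, holds a TATA box match at position -32 from its start site, a match present anywhere in 12.4% of windows, whereas the second (chrX:7580233-7580482) holds none. Neither the RUNX nor the forkhead letters are found in these 5 windows, and 14% and 3.17% of all windows hold them. A match is a description of the letters and not a measured site. In the RefSeq annotation no protein-coding gene separates Cd3d from Cd3g or Cd3e, Ctla4 from Icos, or Cd8b1 from Cd8a.

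Foxp3, the lineage factor of regulatory T cells, was higher on 4 of the 7 days. On day 7 it ranged from 7.35 to 8.23 in bleomycin mice (median 7.81) and from 7.05 to 7.34 in saline mice (median 7.21). All 8 bleomycin mice were above all 8 saline mice, a separation that 10.3% of all genes showed on that day. The difference was 0.59 ± 0.10, or 1.5-fold (adjusted p = 3.19e-07). On day 14 it ranged from 7.53 to 8.47 in bleomycin mice (median 8.05) and from 7.16 to 7.28 in saline mice (median 7.26), again without overlap, as 10% of all genes did. The difference was then 0.76 ± 0.10, or 1.7-fold (adjusted p = 9.63e-10). The saline mice of day 14 were alike, with a standard deviation of 0.05, whereas that of the bleomycin mice was 0.30. On day 21 the groups overlapped and the difference was 0.16 ± 0.10 (adjusted p = 0.186). It was 0.26 ± 0.10 on day 28 (adjusted p = 0.0418) and 0.25 ± 0.10 on day 35 (adjusted p = 0.0443), each with 5 of 8 bleomycin mice above the highest saline mouse. Without bleomycin mouse 3 of day 35, whose array had the lowest median correlation with its group (0.9785), the day 35 difference was 0.21 and was not called (adjusted p = 0.117). The day 28 call was lost when each day was fitted alone (adjusted p = 0.0831). Foxp3 has 1 probeset, with a mean level of 7.46 at percentile 31.8 of the probesets that name 1 gene. In saline mouse 7 of day 2, Foxp3 was 0.11 above the mean of the other mice of its group. The other members were 0.74 to 1.30 above theirs in that mouse. Whether the saline levels of Foxp3 lay near the background signal was not tested.

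Ctla4 had the largest differences of the 9 genes. On day 7 it ranged from 7.70 to 9.60 in bleomycin mice (median 8.25) and from 7.02 to 8.06 in saline mice (median 7.38). In this group 6 of 8 bleomycin mice were above the highest saline mouse and all were above the saline mean. The difference was 1.12 ± 0.23, or 2.18-fold (adjusted p = 1.85e-05). On day 14 the range was 7.92 to 9.69 in bleomycin mice (median 8.70) and 6.84 to 7.50 in saline mice (median 7.23), with no overlap. Such a separation was shown by 10% of all genes on that day. The day 14 difference was 1.63 ± 0.24, or 3.1-fold (adjusted p = 1.13e-08). On day 21 the groups overlapped, and bleomycin mice ranged from 6.92 to 9.31, and saline mice from 6.97 to 8.84. The day 21 difference was 0.50 ± 0.23 and was not called (adjusted p = 0.0689), while without the saline mouse of that day that stood apart, which held the 8.84, it was 0.68 and was called (adjusted p = 0.0102). On day 28, 7 of 8 bleomycin mice were above the highest saline mouse, with a range of 7.07 to 8.97 against 6.91 to 7.62 and a difference of 0.79 ± 0.23 (1.72-fold, adjusted p = 0.00718). On day 35 it was 0.53 ± 0.23 and was not called (adjusted p = 0.0684).

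Icos, which lies next to Ctla4, rose on days 7 and 14. On day 14 it ranged from 8.84 to 10.22 in bleomycin mice (median 9.46) and from 8.63 to 8.86 in saline mice (median 8.71), and 7 of 8 bleomycin mice were above the highest saline mouse. The difference was 0.78 ± 0.20, or 1.72-fold (adjusted p = 0.000611). On day 7 it was 0.45 ± 0.19 (adjusted p = 0.0433), with 5 of 8 above the highest saline mouse and 1 below the lowest. Icos has 3 probesets, and they did not give the same day 7 result. The other two differed by 0.25 and 0.23 on day 7 and were not called (adjusted p = 0.23 and 0.232), but by 0.73 and 0.70 on day 14, both called (adjusted p = 0.000615 and 0.000283). With the mean of the 3 probesets the day 7 difference was 0.31 (adjusted p = 0.111). Without the saline mice that stood apart, the day 7 differences were 0.50 for Icos, 1.14 for Ctla4 and 0.58 for Foxp3, and all 3 were called.

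**Figure D3:**
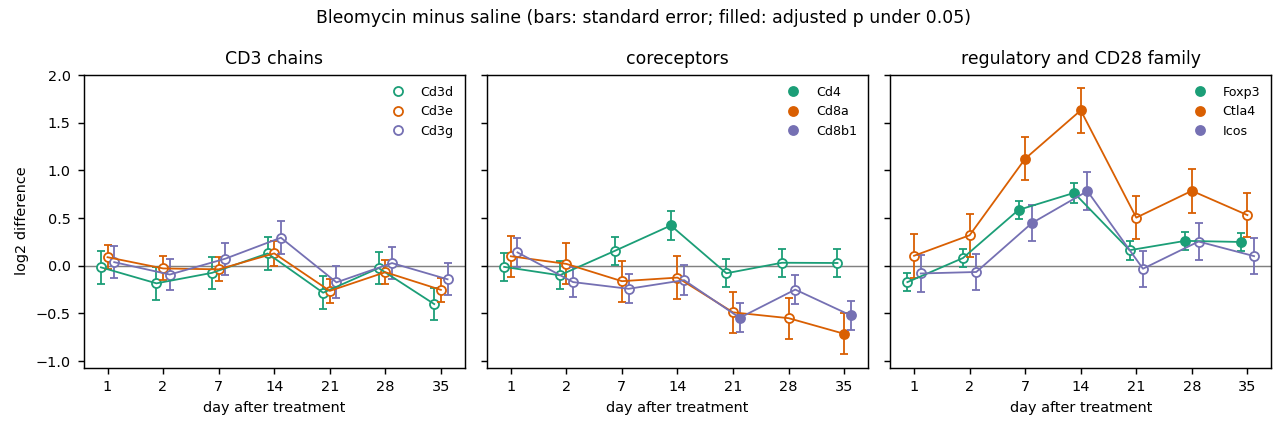
Difference of bleomycin minus saline mice on the log2 scale (y axis) by day (x axis) for the CD3 chains, the coreceptors, and Foxp3 with the CD28 family genes. Points are differences, bars are standard errors of the model, and filled points have an adjusted p below 0.05. Ctla4 reaches 1.63 on day 14, and no CD3 point is filled.

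Among the coreceptors, Cd4 was higher on day 14 and the CD8 chains were lower later. Cd4 on day 14 ranged from 8.24 to 9.26 in bleomycin mice (median 8.43) and from 7.88 to 8.32 in saline mice (median 8.24). All 8 bleomycin mice were above the saline mean and 6 were above the highest saline mouse, with a difference of 0.42 ± 0.15 (1.34-fold, adjusted p = 0.0197). The dimmer of its 2 probesets gave 0.12 ± 0.12 on day 14 (adjusted p = 0.447) and was called on day 1 in its place (0.32 ± 0.12, adjusted p = 0.0299). With the mean of both, the day 14 difference was 0.27 (adjusted p = 0.0719), so the Cd4 call rests on the more variable probeset.

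Cd8a, the chain shared by both forms of CD8, fell on day 35. It ranged from 7.70 to 8.72 in bleomycin mice (median 8.38) and from 8.56 to 9.32 in saline mice (median 9.06). All 8 bleomycin mice were below the saline mean and 5 were below the lowest saline mouse, and the difference was -0.71 ± 0.21, or 1.64-fold lower (adjusted p = 0.00699). The 4 probesets of Cd8a, which differed by -0.51 to -0.71 on day 35, were all called lower on that day. On days 21 and 28 the differences of the probeset used were -0.49 ± 0.21 and -0.55 ± 0.21 (adjusted p = 0.0597 and 0.0502). These stood at the threshold, and several alternative settings called them. Without the 3 saline mice that stood apart, none of which was from day 28, the day 28 difference was the same and its adjusted p was 0.0431. The other probesets differed between these days. On day 21 one of them was called lower (-0.69 ± 0.17, adjusted p = 0.000573), and the rest were not (-0.40 and -0.32, adjusted p = 0.0516 and 0.129). On day 28 none of them was called (-0.27 to -0.40, adjusted p from 0.0747 to 0.252).

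Cd8b1, the beta chain that marks conventional cytotoxic T cells, was lower on days 21 and 35. On day 21 it ranged from 6.23 to 7.20 in bleomycin mice (median 6.81) and from 6.95 to 7.72 in saline mice (median 7.39), and all 8 bleomycin mice were below the saline mean. The difference was -0.55 ± 0.15, or 1.46-fold lower (adjusted p = 0.00267). On day 35 the ranges were 6.54 to 7.38 and 7.34 to 7.88, so that 7 of 8 bleomycin mice were below the lowest saline mouse, although the groups overlapped. That difference was -0.52 ± 0.15, or 1.44-fold lower (adjusted p = 0.00621). On day 28 it was -0.25 ± 0.15 and was not called (adjusted p = 0.25). Without the saline mouse of day 21 that stood apart, the day 21 difference was -0.52 (adjusted p = 0.00346).

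The responses were also compared between periods, with days 1 and 2 as the inflammatory phase, days 7 and 14 as active fibrosis and days 21, 28 and 35 as the late phase. From the inflammatory phase to active fibrosis, the response rose for 3 of 9 genes, where it rose for 20.4% of all genes. These were Ctla4 (by 1.16 ± 0.23, adjusted p = 2.35e-05), Foxp3 (by 0.72 ± 0.10, adjusted p = 4.25e-09) and Icos (by 0.69 ± 0.19, adjusted p = 0.00252). The same 3 genes fell again from active fibrosis to the late phase, a call made for 14.9% of all genes, with changes of -0.77 ± 0.21 for Ctla4, -0.45 ± 0.09 for Foxp3 and -0.51 ± 0.17 for Icos. Compared with the inflammatory phase, the late response was higher for Foxp3 (0.27 ± 0.09, adjusted p = 0.0158), as for 16.3% of all genes. It was lower for Cd8a (-0.64 ± 0.20, adjusted p = 0.00792) and Cd8b1 (-0.42 ± 0.14, adjusted p = 0.016), as for 12.2% of all genes. The inflammatory phase includes day 1, when saline Foxp3 was at its highest mean (7.55). On that day the Foxp3 difference was -0.17 ± 0.10 (adjusted p = 0.177), with 5 of 8 bleomycin mice below the lowest saline mouse. That difference enters both Foxp3 contrasts with the inflammatory phase, and its part in them was not tested. An F test of equal responses on the 7 days was passed by 3 of 9 genes (48% of all genes), with adjusted p of 3.53e-07 for Foxp3, 0.000809 for Ctla4 and 0.0358 for Icos.

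Saline mice were not constant over the 35 days. Their level differed among days for 3 of 9 genes (54.1% of all genes), namely Cd8b1 (adjusted p = 0.00418), Foxp3 (0.0346) and Cd8a (0.0406). Mean Cd8a in saline mice was highest on day 7 (9.10) and lowest on day 21 (8.48), and mean Cd8b1 was highest on day 2 (7.87) and lowest on day 14 (7.33). Saline Foxp3 was highest on day 1 (7.55) and lowest on day 7 (7.20). In bleomycin mice the lowest mean of both CD8 chains was on day 21 (7.99 for Cd8a and 6.83 for Cd8b1), and the highest mean of Foxp3, Ctla4, Icos and Cd4 was on day 14 (8.00, 8.84, 9.52 and 8.59). With all 55 saline arrays as the control of every day, 4 of 9 genes were called lower on day 21 in place of 1 (Cd3d, Cd3e, Cd8a and Cd8b1), and Foxp3 was no longer called on day 35 (0.16, adjusted p = 0.0924). The share of all genes called with this control was not computed, so the count of 4 has no background to be read against.

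As all T cells carry CD3, each other gene was also expressed relative to the mean of Cd3d, Cd3e and Cd3g in the same mouse, which tests whether a gene and the CD3 chains changed unequally. This scaling moves every gene by the change of the CD3 chains, and the median difference over all genes became -0.19 on day 14, 0.24 on day 21 and 0.28 on day 35, and lay between -0.05 and 0.09 on the other days. Values of those 3 days are to be read with these medians in mind, as a gene that did not change also moves relative to CD3. On day 7, 3 of 6 genes were called higher relative to CD3 (Ctla4, Foxp3 and Icos; 9.44% of all genes), and the same 3 on day 14 (4.25%). Ctla4 was higher relative to CD3 on each of days 7, 14, 21, 28 and 35, by 1.14, 1.45, 0.75, 0.81 and 0.80, each ± 0.16 to 0.17 (adjusted p from 7.8e-11 to 0.000639). On day 14 its level minus the CD3 mean ranged from -1.49 to -0.70 in bleomycin mice and from -2.47 to -2.21 in saline mice, without overlap. The share of all genes separated on this scale was not computed. Foxp3 was higher relative to CD3 by 0.60 on day 7, 0.58 on day 14, 0.40 on day 21 and 0.52 on day 35, each ± 0.15 (adjusted p = 0.00156, 0.0042, 0.0434 and 0.0105). Those 2 genes were called on day 21 against 16.8% of all genes, and without the saline mice that stood apart 1 gene was. On day 28 the 1 gene called higher was Ctla4 (1.76%). On day 35, 4 of 6 were called higher (14.6%), with Icos (0.37 ± 0.13, adjusted p = 0.0494) and Cd4 (0.29 ± 0.11, adjusted p = 0.0445) beside Foxp3 and Ctla4. The day 35 value of Cd4 lay 0.01 above the median over all genes and that of Icos 0.08, whereas Foxp3 lay 0.23 and Ctla4 0.51 above it. Subtracting that median removes the CD3 scaling, so these are nearly the unscaled differences (0.03, 0.10, 0.25 and 0.53). They describe the change of each gene itself and not a change unequal to CD3. Of 14 alternative settings, the day 35 calls of Icos and Cd4 were made in 9 and 10, the Foxp3 calls of days 21 and 35 in 11 and 13, the Icos call of day 7 in 11, and each of the 5 Ctla4 calls in all 14. Part of this was fixed in advance. Ctla4, Foxp3 and the CD3 chains have 1 probeset each, so the choice of probeset could not change their differences. Median normalisation cancels on this scale. Leaving out dim genes or moderation keeps every difference and changes only its error and adjusted p.

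The CD8 chains were lower relative to CD3. Cd8b1 was called on day 14 (-0.34 ± 0.11, adjusted p = 0.0294; 9.67% of all genes were called lower) and on day 21 (-0.31 ± 0.11, adjusted p = 0.0356; 0.732%). Cd8a was called on day 28 (-0.53 ± 0.15, adjusted p = 0.0295; 0.248%) and on day 35 (-0.45 ± 0.15, adjusted p = 0.028; 0.63%). With the brightest probeset of Cd8a neither was called (-0.25 on day 28, adjusted p = 0.466, and -0.31 on day 35, adjusted p = 0.0535). The day 28 call was also lost with the mean of the probesets (adjusted p = 0.097), with Cd3e alone as the reference (0.0675) and with 1 fit per day (0.0582), and the day 35 call without bleomycin mouse 3 (-0.38, adjusted p = 0.0925). The Cd8b1 calls were lost with 1 fit per day (adjusted p = 0.287 on day 14 and 0.436 on day 21), and that of day 14 with Cd3e alone (0.0687). On the same days the other chain was lower without passing the test, with -0.31 and -0.25 for Cd8a on days 14 and 21 and -0.23 and -0.26 for Cd8b1 on days 28 and 35 (adjusted p from 0.0844 to 0.476). In the contrast between the late and the inflammatory phase, Cd8a was lower relative to CD3 by 0.50 ± 0.13 (adjusted p = 0.00951; 0.751% of all genes). Foxp3 and Ctla4 were higher in that contrast (0.41 and 0.54, adjusted p = 0.0404 and 0.0133; 6.5% of all genes).

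**Figure D4:**
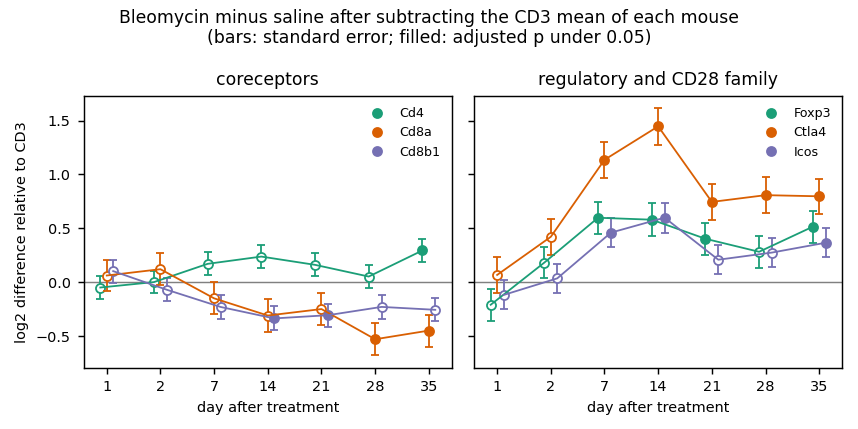
Difference of bleomycin minus saline mice after subtracting the mean of the 3 CD3 chains in each mouse (log2, y axis) by day (x axis). Points are differences, bars are standard errors of the model, and filled points have an adjusted p below 0.05. Ctla4 is filled from day 7 to day 35, and Cd8a on days 28 and 35.

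The genes also differed in how they varied from mouse to mouse within groups. Over the 111 arrays, after subtracting each group mean, Cd3d and Cd3g had a Pearson correlation of 0.96, Cd3d and Cd3e of 0.90, and Cd8a and Cd8b1 of 0.82. Cd4 followed Cd3g (0.84) and Icos (0.81). Ctla4 followed Icos (0.80) and Cd4 (0.77) more than it followed Foxp3 (0.64). Foxp3 had the weakest relation to the CD8 chains, with 0.14 for Cd8b1 and 0.25 for Cd8a. Leaving out the 3 saline mice that stood apart changed the lowest value to 0.13 and the highest to 0.96. Values in between could move more, as for Cd8b1 and Icos (from 0.51 to 0.44). Foxp3 was measured by 1 probeset at percentile 31.8 of mean level, and the part of this in its weaker correlations was not tested. The arrays share their RNA amplification and normalisation, so these values are descriptions of how the genes vary together.

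The genes outside the 10 whose variation within groups was most like theirs were, for Cd3e, Sh2d1a (0.87), Cd28 (0.87) and Cd5 (0.85). For Cd8a they were Ms4a4b (0.82), Ctsw (0.80) and Themis (0.78). For Foxp3 they were Batf3 (0.76), Matk (0.73) and Tnfrsf4 (0.73), for Ctla4 Pdcd1 (0.86), Tnfrsf18 (0.84) and Ly86 (0.83), and for Icos Il21r (0.81), Thy1 (0.81) and A430093F15Rik (0.79). Pdcd1 encodes PD-1, an inhibitory receptor related to CTLA4, and Tnfrsf4 and Tnfrsf18 encode the TNF receptor family members OX40 and GITR.

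Other genes of T cell biology were counted in lists. Of 14 measured genes associated with regulatory T cells, 10 were called higher on day 7 and 10 on day 14, where 25.7% and 21.9% of all genes were, and 4, 6 and 5 on days 21, 28 and 35, where 20.5%, 11.5% and 16.9% were. The list's median difference was 0.42 on day 7 and 0.51 on day 14. Those with the largest differences on day 7 were Itgae (1.35 ± 0.16, adjusted p = 2.07e-11), Il2ra (1.16 ± 0.15) and Tnfrsf4 (0.91 ± 0.14). Itgae encodes the alpha E integrin that holds lymphocytes to epithelium, and Il2ra the high affinity interleukin 2 receptor chain. Itgae is also made by dendritic cells, and Capg, another list gene called on both days, by macrophages. Of 9 ligands of costimulatory and inhibitory receptors, 8 were called higher on day 7 (25.7% of all genes), with a median of 0.72. Among them were the CTLA4 ligands Cd80 (1.41 ± 0.19, adjusted p = 4.64e-10) and Cd86 (1.34 ± 0.17, adjusted p = 1.78e-10), and Cd276 (1.07 ± 0.12).

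In 8 measured genes of naive and central memory T cells, 7 were called lower on day 21, where 18.9% of all genes were, and 6 on day 7, where 21.9% were. The list median was -0.51 on day 21. The largest differences were those of Klf2 (-0.84 ± 0.15, adjusted p = 3.29e-06), a factor that keeps T cells quiescent and is also strongly made by endothelium, Satb1 (-0.59 ± 0.15) and Bach2 (-0.57 ± 0.09). Of 11 further T cell receptor and surface genes, 4 were higher on day 14 (21.9% of all genes), with Cd5 (0.58 ± 0.18), Thy1 (0.40 ± 0.12) and Cd247 (0.36 ± 0.12) the largest, and 3 were lower on day 35 (12.5% of all genes). Cd247 encodes the zeta chain of the receptor complex, and it was lower on day 35 by 0.31 ± 0.12 (adjusted p = 0.0343). Of 17 genes that act close to the T cell receptor, 8 were lower and 1 higher on day 35 (12.5% and 16.9% of all genes), with Rhoh (-0.69 ± 0.22), Txk (-0.61 ± 0.13) and Prkcq (-0.58 ± 0.08) the lowest and Lcp2 (0.54 ± 0.12) higher. B cell markers were also called lower, 6 of 7 on day 21 and 7 of 7 on day 35. The part of B cells in the differences of these lists was not tested.

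Among 13 checkpoint and activation genes, 4 were higher and 4 lower on day 35, beside 16.9% and 12.5% of all genes. The higher ones included the inhibitory receptors Pdcd1 (0.80 ± 0.25, adjusted p = 0.0101) and Havcr2 (0.76 ± 0.11, adjusted p = 1.98e-07) and the costimulatory receptor Tnfrsf9 (0.71 ± 0.21). The lower ones included Cd69 (-0.91 ± 0.16, adjusted p = 2.67e-06), an early activation marker, Btla (-0.66 ± 0.19) and Slamf6 (-0.48 ± 0.18). Pdcd1 was also higher on day 14 by 1.81 ± 0.26 (3.52-fold, adjusted p = 9.48e-09), and Havcr2, which macrophages and dendritic cells make as well, on day 7 by 1.11 ± 0.11. Of 15 helper subset genes, 5 were lower on day 35 and 1 higher, beside the same 12.5% and 16.9% of all genes. Cxcr5 (-0.81 ± 0.17), Tbx21 (-0.65 ± 0.16), a factor of type 1 helper and NK cells, and Gata3 (-0.56 ± 0.13), a factor of type 2 helper cells, were lowest, and Il13 differed by 0.21 ± 0.08. On the same day 7 of 7 B cell markers and 10 of 10 NK cell markers were also called lower. The part of those cells in the differences of these lists was not tested.

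**Figure D5:**
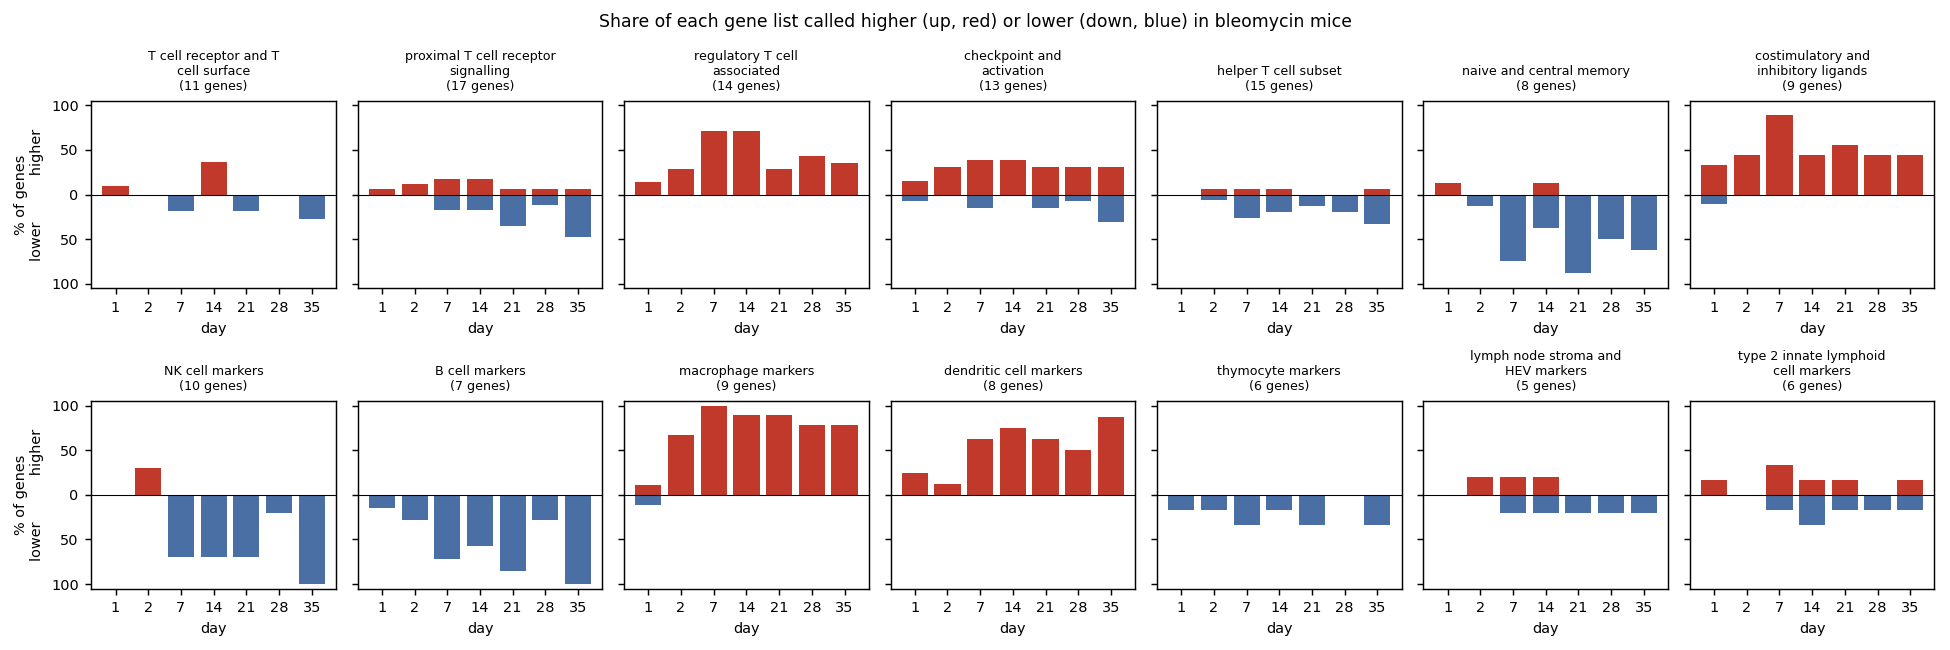
Share of the measured genes of each list (number in brackets) called higher (red, upward) or lower (blue, downward) in bleomycin mice, in percent (y axis), by day (x axis), with lists of T cell biology in the upper row and of other cells in the lower row (HEV, high endothelial venule). Regulatory T cell associated genes point upward on days 7 and 14 (10 of 14), and NK and B cell markers downward on day 35 (10 of 10 and 7 of 7).

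Markers of other cells moved with the treatment on the same days. All 9 macrophage markers were called higher on day 7 (25.7% of all genes), when their mean level was 9.87 to 10.32 in saline and 11.32 to 11.95 in bleomycin mice. The largest differences were those of Msr1 (2.61 ± 0.27), C1qb (2.12 ± 0.20) and C1qa (1.96 ± 0.18). Of 8 dendritic cell markers, 5 were higher on day 7, 6 on day 14 and 7 on day 35 (25.7%, 21.9% and 16.9% of all genes), among them Itgax (0.77 ± 0.14), Ccl22 (0.67 ± 0.21) and Cd209a (0.56 ± 0.14) on day 35. Their mean level was 8.38 to 8.60 in saline and 8.88 to 9.34 in bleomycin mice on day 7. The part of these cells in the differences of the regulatory T cell associated genes and ligands was not tested.

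Beside the lower CD8 chains, 10 of 10 NK cell markers and 7 of 7 B cell markers were called lower on day 35, where 12.5% of all genes were. The mean NK marker level was 8.97 to 9.43 in saline and 7.96 to 8.86 in bleomycin mice, and the largest differences were those of Gzma (-0.99 ± 0.16), Klre1 (-0.84 ± 0.14) and Nkg7 (-0.83 ± 0.14). Gzma and Nkg7 are cytotoxic genes that CD8+ T cells also express, and the part of NK cells in the Cd8a difference was not tested. The mean B cell level was 9.10 to 9.91 in saline and 8.27 to 9.36 in bleomycin mice, with Fcrla (-1.08 ± 0.22), Blk (-1.06 ± 0.20) and Ms4a1 (-0.89 ± 0.23) lowest. On day 7, 7 of 10 NK and 5 of 7 B cell markers were lower (21.9% of all genes), while the CD8 chains did not pass the test on that day (-0.16 and -0.24).

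Thymocyte markers were at mean levels from 6.19 to 6.83 in every group. On day 7, 2 of 6 were called lower, Cd1d1 (-0.35 ± 0.08) and Rag2 (-0.27 ± 0.06), where 21.9% of all genes were. The part of thymus tissue in the samples was not tested. Of 5 lymph node stroma and high endothelial venule markers, Cxcl13 was higher on day 7 (1.82 ± 0.33, adjusted p = 1.97e-06) and Chst4 lower (-0.71 ± 0.18). Glycam1 did not pass the test on that day (-0.47 ± 0.42, adjusted p = 0.378), and its sign rested on the saline mouse that stood apart, since without the 3 such mice it was 0.20 ± 0.11 (adjusted p = 0.152). Of 6 markers of type 2 innate lymphoid cells, Klrg1 (0.45 ± 0.16) and Il13 (0.23 ± 0.08) were higher and Gata3 (-0.54 ± 0.13) lower on day 7. Gata3 and Il13 are held by the helper subset list as well, and which cells gave these values was not tested.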

How the data were processed

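Total RNA of whole lungs was amplified and hybridised to 1-colour Affymetrix arrays. The deposited values are log2 levels that the authors made by mapping probes to mouse genome sequences (build not given in the sources used here), discarding probes with non-unique or outdated mappings and normalising by RMA, and they removed 1 saline sample of day 14. Of 32688 probesets, 314 name several genes and 4503 none in the platform annotation, and these were left out. Of the remaining 27871, each gene was represented by the probeset with the highest variance (15707 genes). A linear model of 14 group means was fitted with limma 3.58.1 in R 4.3.3 (lmFit, eBayes), with contrasts within days and between periods, F tests over days, and Benjamini-Hochberg adjustment over all genes within a contrast. The same model was fitted to each gene minus the mean of Cd3d, Cd3e and Cd3g of its array (15704 genes). The number of arrays limits the precision.

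The members and gene lists were chosen with earlier results of these data known. Named list genes are up to 3 called in each direction with the largest change on the day with most calls of that list, and genes most alike are the 3 with the highest correlation within groups for Cd3e, Cd8a, Foxp3, Ctla4 and Icos. Cd247 on day 35, Capg, Pdcd1 on day 14, Havcr2 on day 7 and Glycam1 were named after their values were seen. The fit was tested on simulated data in which 100 of 15707 genes were changed 1.5-fold and 100 were changed 3-fold. It called 94 and 100 of them in the day 7 comparison and 92 and 100 in that of day 14. Of the unchanged genes it called 8 and 7. In the real data 25.7% of all genes were called higher and 21.9% lower on day 7, so these rates need not hold there. The simulation also shuffled the deviations from group means over all arrays, which removes unequal spreads among groups. In the real data the standard deviation of Foxp3 ran from 0.05 to 0.31 among groups, so the simulation did not test the shared spread. Replicate numbers were not treated as pairs, since the labels do not pair mice across groups. Of the same-numbered pairs of a day, 23 of 55 correlated above 0.1, and whether the numbers mark a shared batch was not tested. The alternatives were the brightest or the mean of the probesets, no dim genes (all 9 members stay), repeated quantile or median normalisation, separate fits by day, array weights, a control of all saline mice, no moderation, a replicate block, and leaving out arrays.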

Additional observations from a re-analysis of the deposited data

Results flagged for a closer look

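In each group of 7 or 8 mice, the highest and lowest mouse of each of the 9 genes were compared with the rest by the size of the gap to the nearest mouse relative to the range. Of 126 such sets 17 held a mouse that stood apart, and chance alone gives about 1 in 20. Saline mouse 7 of day 2 accounted for 8 of the 17. Its level was above the other mice of its group in Cd3d (11.35), Cd3e (10.16), Cd3g (10.85), Cd4 (9.33), Cd8a (10.20), Cd8b1 (8.93), Ctla4 (8.36) and Icos (10.02), but not in Foxp3 by this criterion. Saline mouse 4 of day 21 accounted for 5, in Cd3e (9.82), Cd3g (10.22), Cd4 (9.27), Ctla4 (8.84) and Icos (10.12). In this mouse Cd8a was 8.48, within the range of 8.18 to 8.73 of the rest of its group. These are the mice with high Cxcl13, and the part of lymphoid tissue in their values was not tested.

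The other 4 were single genes in single mice. Low values were found for Cd3d in bleomycin mouse 4 of day 7 (9.41), Cd3e in bleomycin mouse 8 of day 35 (8.63) and Cd3g in bleomycin mouse 2 of day 2 (8.85). Foxp3 was high in saline mouse 1 of day 1 (7.79).

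Responses that differed between periods by the limma test of the difference were those of 5 genes. The share of all genes that differed between any periods was not computed, so the count of 5 has no background to be read against. In the single comparisons below, 12.2% to 20.4% of all genes were called in the same direction. From days 1 and 2 to days 7 and 14, Foxp3 changed by 0.72, Ctla4 by 1.16 and Icos by 0.69. From days 7 and 14 to the later days, they changed by -0.45, -0.77 and -0.51. Between days 1 and 2 and days 21, 28 and 35, Foxp3 changed by 0.27, Cd8a by -0.64 and Cd8b1 by -0.42.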

How the results depend on the processing

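Over the alternatives, 690 of the differences of 1 gene on 1 day kept their direction and side of the threshold, 26 passed the threshold only under the alternative, and 8 no longer passed. In the remaining 32 the sign changed between values that were called in neither setting, with reported differences of at most 0.18 in size, and 0 called differences reversed. Part of these comparisons could not change in size or direction. Genes with 1 probeset do not depend on the probeset chosen, and leaving out dim genes or moderation keeps every difference. Leaving out an array keeps the differences of other days. How many were fixed in this way was not counted. For counts of called genes, 380 stayed within 1.5 times and 50 did not. With the brightest probeset per gene, the counts relative to CD3 were 0 lower on day 28, and 2 higher and 0 lower on day 35. With the mean of the probesets, 2 were lower on day 21 and 0 lower relative to CD3 on day 28, and Icos on day 7 and Cd4 on day 14 were lost. Without dim genes, 2 were lower on day 21 and 1 on day 28. With repeated quantile normalisation, 0 were higher on day 35, and Icos on day 7 was lost (0.42, adjusted p = 0.057). With 1 fit per day, 1 was higher and 1 lower on day 28, and relative to CD3 there were 0 lower on day 14, 1 higher and 0 lower on day 21, 0 lower on day 28 and 2 higher on day 35. With all saline arrays as control, 1 was lower on day 14, 1 higher and 4 lower on day 21, and 2 lower on day 28. There 8 fell from active fibrosis to the late phase and 4 were lower in the late than in the inflammatory phase. Relative to CD3, 2 were lower on each of days 14, 21, 28 and 35, 4 higher on day 21 and 3 higher on day 28. With array weights, 1 was higher and 4 lower on day 21, 1 lower on day 28 and 2 higher on day 35, and relative to CD3 there were 1 higher on day 2, 1 lower on day 7, 4 higher and 2 lower on day 21 and 2 lower on day 35. Without moderation, 2 were lower relative to CD3 on day 35. Without bleomycin mouse 3 of day 35, 1 was lower on day 28 and 0 higher on day 35, and relative to CD3, 2 were higher and 0 lower on day 35. Without the 3 saline mice that stood apart, an alternative chosen after seeing the data, 1 was higher on day 21, 1 lower on day 28 and 1 higher relative to CD3 on day 21. With Cd3e alone as the reference, 0 were lower relative to CD3 on days 14 and 28, and with Cd3g alone 1 was higher on days 21 and 35. Shares of all genes called were not computed under the alternatives, so these counts have no background beside them. The causes of these changes were not tested.

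The labels do not pair same-numbered mice of a day, and 23 of 55 such pairs correlated above 0.1. Whether these mice shared a batch was not tested. With the replicate number as a block, 2 were lower on day 21 and 1 on day 28, since Cd8a was then called (adjusted p = 0.0495 and 0.0403), and no other member count moved by over 1.5 times.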
